A study of Homo sapiens with 15 samples.

Results

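Creatine kinase genes, myoglobin and the muscle forms of glycolytic and glycogen enzymes, with their brain or ubiquitous counterparts, were followed through 5 days of cardiac differentiation. The genes were chosen by name: CKM, CKMT2, MB, ENO3 and PYGM on the muscle side, and CKB, PGAM1, ENO1 and PYGB on the counterpart side. These 9 of the 10 genes named in the rule were analysed among 48777 genes in the tables, and PGAM2 was not analysed here. Bulk RNA-seq was made from H1, an established human embryonic stem cell line, with 3 biological replicates on each of days 0, 4, 9, 11 and 20 and 15 libraries in all. Per the labels every library came from cells on the laminins LN521+LN221, although the deposited sample table lists day 0 under L521. Day 0 cells were undifferentiated and kept in Nutristem medium. At confluence on day 4, per the treatment protocol, the cells were given RPMI medium with B27 lacking insulin and the GSK3 inhibitor CHIR99021, and later the Wnt inhibitor IWP2. From day 11 the medium was RPMI with CTS B-27. No group carried a transgene or a gene edit. All libraries came from 1 cell line, and 2 of the day 20 libraries came from plate 2.

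Creatine kinases pass phosphate between ATP and creatine, so that a store of phosphocreatine can refill ATP where it is spent. CKM is the cytosolic muscle form, CKMT2 the mitochondrial form of heart and skeletal muscle, and CKB the brain form, which is found in many tissues and in the embryonic heart. MB encodes myoglobin, the oxygen-binding globin of heart and skeletal muscle. Enolase and phosphoglycerate mutase act late in glycolysis: ENO3 is the muscle enolase and ENO1 the form of most cells, and PGAM1 is the mutase of most cells. Glycogen phosphorylase releases glucose phosphate from glycogen, with PYGM as the muscle form and PYGB as the brain form, which is also made in the heart.

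The libraries held between 11990302 and 33469703 counts on genes. Replicates of a day differed from each other by more than sampling noise, and each was counted once. That excess cannot show whether the 2 libraries of plate 2 on day 20 came from separate cultures. The labels name the day 4 libraries by plates 1, 2 and 5, those of day 9 by plates 2 and 6 and replicate 3, those of day 11 by plates 2, 5 and 6, and those of day 20 by plate 2, plate 2 (labelled 2_3) and plate 6. Values are given in that order. The 2_3 library stood apart, with an RNA integrity number of 6.1 and 48230 genes with counts. Genes silent on days 0 to 11 were picked by a total of at most 2 counts over those 12 libraries. Their median was 7.19 reads per kb in the 2_3 library, 0.405 in the plate 6 library of day 20 and 0 in the first plate 2 library of that day. The picking itself kept their counts low on days 0 to 11, so those days are no comparison. Reads at 7.19 per kb would make between 0.149% and 2.37% of the counts of the 9 genes in the 2_3 library. The origin of these reads was not tested. A single gene took 20.0% of all TPM in day 0 replicate 3 and 17.0% in the plate 2 library of day 9, which lowers the TPM of every other gene there. The cardiomyocyte marker TNNT2 was at 1.23 to 4.24 TPM on days 0 and 4 and at 244 to 956 on day 11. The study picked TNNT2 from this time course for being high on day 11, so its rise is no independent check of the labels. In bulk RNA, fewer cells of a type and less RNA per cell cannot be told apart.

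All 5 muscle genes were higher on day 20 than on day 0, and none of the 4 counterparts was called between these days. PYGB was just above the threshold (adjusted p = 0.0501) and was called higher without the 2_3 library (adjusted p = 0.0245). A test over all 15 libraries asked whether a gene changed on any day, and it called 8 of the 9 genes, all but CKB (adjusted p = 0.201). ENO1 (adjusted p = 0.0166) was lost without the plate 2 or plate 6 library of day 9 or of day 11, and CKB was called without either plate 2 library of day 20. The background was high, since 50.4% of all 24767 genes tested were called. Between days 4 and 0, before the differentiation medium, none of the 8 members that passed the filter on low counts was called, against 0% of all genes (edgeR called 0 of 20964, with 741 at an unadjusted p under 0.05, and DESeq2 called 0). CKM was too low to be tested there. Between days 9 and 4, 3 muscle genes rose (CKM, MB and ENO3), where 24.3% of all genes were called higher. All 4 counterparts fell in the same interval, where 24.7% of genes were called lower. Pluripotency markers moved with them: 5 of 5 were called lower, with a median log2 fold change of -3.76, and their summed TPM was 4591 to 6124 on day 4 and 1658 to 2098 on day 9. Their part in the fall of the counterparts was not tested.

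After day 9 the calls were few. Between days 11 and 9 only CKM was called higher among the 9 genes and none lower, where 1.39% of all genes were called higher and 1.0% lower. Between days 20 and 11 only CKMT2 was called higher and none lower, where the shares were 1.12% and 0.435%. Over the whole course from day 0 to day 20, all 5 muscle genes were called higher, against 16.1% of all genes, and none of the 9 was called lower, against 11.3%. The median log2 fold change of the 5 muscle genes was 3.82 and that of the 4 counterparts was -0.21, beside 0.11 over all genes tested. Scaling by library totals alone or by the upper quartile moved that median of all genes to 0.23 and 0.20, and all 5 muscle genes were called under both.

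**Figure D1:**
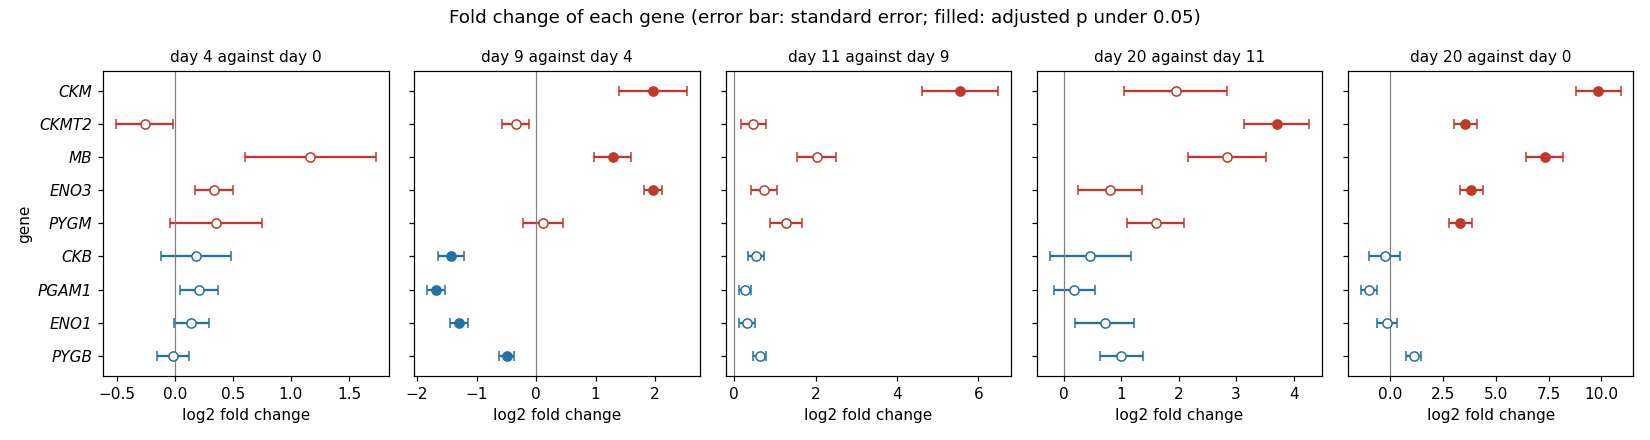
Log2 fold change (x axis) of each of the 9 genes in 5 comparisons of days, from edgeR with 3 libraries per day. Error bars are standard errors, filled points have an adjusted p under 0.05, red marks muscle genes and blue counterparts. From day 4 to day 9 CKM, MB and ENO3 lie to the right and the 4 blue genes to the left; from day 0 to day 20 the 5 red points are filled. CKM was not tested between days 4 and 0, and each panel has its own x scale.

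CKM, at chr19:45306413-45322875 on the minus strand (GRCh38, GENCODE), went from rank 27620 by mean TPM on day 0 to rank 166 on day 20. On day 0 its 3 libraries held 0.870, 0.145 and 0.622 TPM, which rest on 10, 2 and 4 reads. On day 4 it stood at 0.656, 1.01 and 0.489 TPM. These days overlapped.

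On day 9 CKM was at 3.91, 0.994 and 3.27 TPM, and only the plate 6 library lay within the range of day 4. It rose from day 4 by a log2 fold change of 1.96 ± 0.57 (SE, adjusted p = 0.0213). The call was lost without day 4 replicate 1 or 5 or without the plate 2 library of day 9, and with all 15 libraries in one fit. On day 11 the libraries held 49.1, 306 and 56.6 TPM, all above every day 9 library. CKM rose by 5.55 ± 0.94 between days 9 and 11 (adjusted p = 0.0335). The call did not hold with the plate as a block (4.44 ± 0.71, adjusted p = 0.105), with no filter on low counts (adjusted p = 0.182), or without any one library of day 9 or the plate 2 library of day 11 (adjusted p between 0.0509 and 0.162). For every gene, the plate block compared these days only within plates 2 and 6. Day 9 replicate 3 and the plate 5 library of day 11 (306 TPM of CKM) added nothing to it. Over all genes, the main fit called 495. Without the plate 2, plate 6 or replicate 3 library of day 9 this number was 0, 573 or 37. Without the plate 2 library of day 11 it was 133. Within each of the 3 sequencing lanes, which held 1 library of each day, the log2 difference in TPM was 3.87, 6.25 and 5.69.

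On day 20 the CKM level spread widely, with 1015, 594 and 122 TPM, and the plate 6 library lay below the plate 5 library of day 11. From day 11 to day 20 the fold change was 1.95 ± 0.89 (adjusted p = 0.330), and it was not called. The lanes disagreed in direction: the log2 difference was 4.37 and 3.39 in lanes 5 and 2 and -1.33 in lane 1. Against day 0, CKM rose by 9.85 ± 1.05 (adjusted p = 0.000767), and it stayed between 8.12 and 10.34 over 13 alternatives, called in all of them. The few reads of day 0 make the size of this fold change depend on how low counts are handled. Lane 1 was the one lane with libraries of both days, and the log2 difference there was 7.40.

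CKMT2, at chr5:81233320-81266398 on the plus strand, followed a later course. It was at 4.00 to 5.64 TPM on day 0, 3.73 to 4.36 on day 4 and 2.52 to 4.22 on day 9. On day 11 it was still at 3.49, 5.98 and 4.44 TPM, a range that overlapped day 0 and day 9. On day 20 the libraries held 103, 76.3 and 21.8 TPM, and the lowest of them was above every earlier library.

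The rise of CKMT2 from day 11 to day 20 was 3.71 ± 0.56 (adjusted p = 0.0282), the only call among the 9 genes in that interval. It did not pass with the plate as a block (3.51 ± 0.69, adjusted p = 0.111), with the lane as a block (adjusted p = 0.0599), without any one day 11 library (adjusted p between 0.112 and 0.192) or without the first plate 2 library of day 20 (adjusted p = 0.0507). The plate 5 library of day 11 added nothing to the plate fit. Over all genes, the main fit called 332, the plate fit 3 and the lane fit 137. Without 1 day 11 library the number was 0 or 1. Without the first plate 2 library of day 20 it was 94. Without the 2_3 library the rise of CKMT2 was called, with a fold change of 3.75 (adjusted p = 0.0498). Within lanes 5, 2 and 1 the log2 difference was 4.85, 4.07 and 1.85. From day 0 to day 20 CKMT2 rose by 3.55 ± 0.55 (adjusted p = 0.0032). Between days 9 and 4 and between days 11 and 9 its fold changes were -0.34 ± 0.23 and 0.47 ± 0.31 (adjusted p = 0.247 and 0.50).

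CKB, at chr14:103519667-103522833 on the minus strand, was abundant before any muscle gene was. Its libraries held 559.7, 258 and 439 TPM on day 0 and 644, 455 and 403 on day 4. On day 9 it was at 193, 152 and 201 TPM, below every earlier library. CKB fell by 1.43 ± 0.22 on the log2 scale from day 4 to day 9 (adjusted p = 0.00111). The call was lost with all 15 libraries in one fit (adjusted p = 0.0752). Of the 7 neuronal markers, 6 were tested between these days and 5 were called lower, where 24.7% of all genes were. The median log2 fold change of the 6 was -3.12, and their part in the fall of CKB was not tested.

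Later CKB values did not settle on a level. Day 11 held 319, 262 and 243 TPM, above day 9, and the fold change of 0.53 ± 0.19 missed the threshold (adjusted p = 0.217). With the plate as a block it was 0.67 ± 0.15 and called (adjusted p = 0.0131). Day 20 held 846, 119 and 203 TPM, so that this day had both the highest and the lowest CKB level of all 15 libraries. Against day 0 the fold change was -0.27 ± 0.73 (adjusted p = 0.817), with a 95% interval from -1.71 to 1.17. Without the first plate 2 library of day 20, which held 846 TPM, it was -1.69 and called (adjusted p = 0.0441). Without the 2_3 library, which held the lowest level of 119 TPM, it was 0.20 ± 0.57 and not called (adjusted p = 0.814). A near-identical copy of CKB took up to 4.22% of their combined counts.

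**Figure D2:**
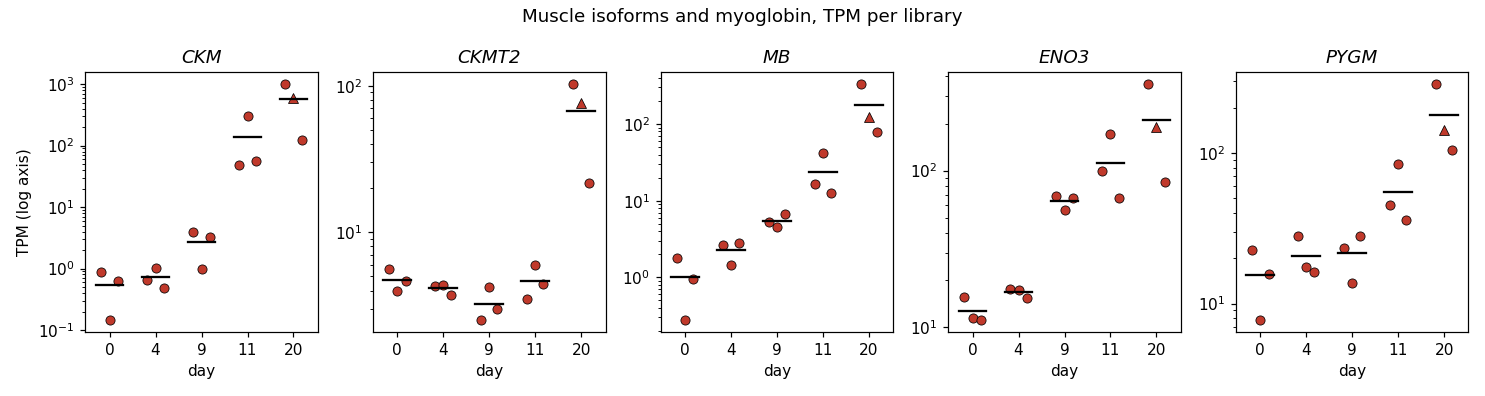
TPM per library (log y axis) against day for CKM, CKMT2, MB, ENO3 and PYGM. Each point is 1 library, the triangle is the 2_3 library of day 20, and bars are means of 3. CKM passes from under 4 TPM on day 9 to 49.1 and more on day 11, CKMT2 stays under 6 until day 11, and on day 20 the plate 6 library is the lowest point for every gene.

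MB, at chr22:35606764-35637951 on the minus strand, had a higher mean on each later day. It was at 1.80, 0.277 and 0.951 TPM on day 0 and 2.62, 1.47 and 2.77 on day 4, with overlap between the days. On day 9 the libraries held 5.32, 4.48 and 6.68 TPM, all above day 4, and MB rose by 1.29 ± 0.31 (adjusted p = 0.00915), a call that was lost with all 15 libraries in one fit (adjusted p = 0.177). On day 11 it was at 16.5, 42.0 and 12.5 TPM, above every day 9 library.

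The step from day 9 to day 11 was 2.03 ± 0.47, which missed the threshold (adjusted p = 0.0771). It was called with the plate as a block (1.52 ± 0.27, adjusted p = 0.00364), with the lane as a block (adjusted p = 0.0479), with no filter (adjusted p = 0.0299) and with DESeq2 (adjusted p = 0.000617). To that plate fit, the plate 5 library of day 11 (42.0 TPM) and day 9 replicate 3 added nothing. On day 20 MB was at 336, 122 and 79.03 TPM, again without overlap with the day before. The step from day 11 was 2.84 ± 0.69 (adjusted p = 0.0857). From day 0 to day 20 MB rose by 7.30 ± 0.89 (adjusted p = 0.0012), and by 6.25 to 7.96 over 13 alternatives, called in all.

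The muscle enolase ENO3, at chr17:4948092-4957131 on the plus strand, moved early. It was at 15.6, 11.5 and 11.1 TPM on day 0 and 17.5, 17.3 and 15.4 on day 4. On day 9 it was at 68.8, 56.3 and 66.4 TPM, well clear of day 4, and it rose by 1.96 ± 0.15 (adjusted p = 2.69e-05). This call held under all 14 alternatives run for these days. Day 11 held 98.8, 170.3 and 67.2 TPM and day 20 held 359, 190.3 and 84.9, and both days overlapped the day before. The later steps were 0.74 ± 0.32 and 0.81 ± 0.55 (adjusted p = 0.296 and 0.525). From day 0 to day 20 ENO3 rose by 3.82 ± 0.54 (adjusted p = 0.00224). Its exons share 111 bases with PFN1 on the opposite strand, and whether the counting used strand is not given in the sources used here.

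ENO1, at chr1:8861000-8879190 on the minus strand, was far above ENO3 on the TPM scale throughout. It ranked 23 by mean TPM on day 0, at 2494, 2354 and 2139.9 TPM, and was at 2775, 2311 and 3008 on day 4. On day 9 it was at 1148, 1090.3 and 1009 TPM, below every earlier library, and it fell by 1.30 ± 0.16 on the log2 scale (adjusted p = 0.000271). Day 11 held 1371, 1698 and 1125 TPM, and day 20 held 3833, 1620.3 and 1806. From day 0 to day 20 the fold change was -0.15 ± 0.47 (adjusted p = 0.843), with a 95% interval from -1.07 to 0.77.

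PGAM1, at chr10:97426191-97433444 on the plus strand, had the same early drop. It was at 763, 559 and 576 TPM on day 0, at 828, 655 and 812 on day 4, and at 246, 246 and 214 on day 9. It fell by 1.68 ± 0.14 on the log2 scale from day 4 to day 9 (adjusted p = 4.76e-05), the largest fall of the 4 counterparts in that comparison. On day 11 it was at 271, 308 and 306 TPM and on day 20 at 518, 353 and 231, where the plate 6 library lay below the day 11 range. Against day 0 the fold change was -1.03 ± 0.37 (adjusted p = 0.0721). That step was called with DESeq2, with all 15 libraries in one fit and without the first plate 2 library of day 20. Its 12 near-identical copies in the tables took between 0.766% and 4.39% of their combined counts.

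PYGM, at chr11:64746389-64759974 on the minus strand, was present from the start. It was at 22.7, 7.77 and 15.8 TPM on day 0 and at 28.3, 17.5 and 16.1 on day 4. Day 9, at 23.5, 13.6 and 28.1 TPM, overlapped both, and the fold change from day 4 was 0.11 ± 0.33 (adjusted p = 0.804). On day 11 it was at 45.5, 84.1 and 36.0 TPM and on day 20 at 289, 143 and 105, and neither day overlapped the one before.

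These later steps of PYGM were 1.26 ± 0.39 and 1.60 ± 0.50 and missed the threshold (adjusted p = 0.159 and 0.156). The first was called with the plate as a block (1.14 ± 0.19, adjusted p = 0.00411) and with the lane as a block (adjusted p = 0.0445). From day 0 to day 20 PYGM rose by 3.31 ± 0.56 (adjusted p = 0.00423).

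PYGB, at chr20:25248085-25298012 on the plus strand, differed from the other counterparts in its late values. It was at 108, 113 and 79.1 TPM on day 0 and 113, 105 and 90.0 on day 4. On day 9 it was at 63.5, 82.8 and 71.1 TPM and fell by 0.49 ± 0.13 on the log2 scale (adjusted p = 0.0115), a call that was lost without the plate 2 library of day 9 and with all 15 libraries in one fit (adjusted p = 0.0571 and 0.154). Day 11 held 129, 95.6 and 123 TPM and day 20 held 358, 249 and 154, each above the day before in all 3 libraries. From day 9 to day 11 the step of 0.63 ± 0.16 missed the threshold (adjusted p = 0.0958) and was called with the plate as a block (0.76 ± 0.15, adjusted p = 0.00561). Against day 0 the fold change was 1.11 ± 0.36, at the edge of the threshold (adjusted p = 0.0501), and 8 of 13 alternatives called it. Without the 2_3 library it was 1.25 ± 0.34 and called (adjusted p = 0.0245).

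**Figure D3:**
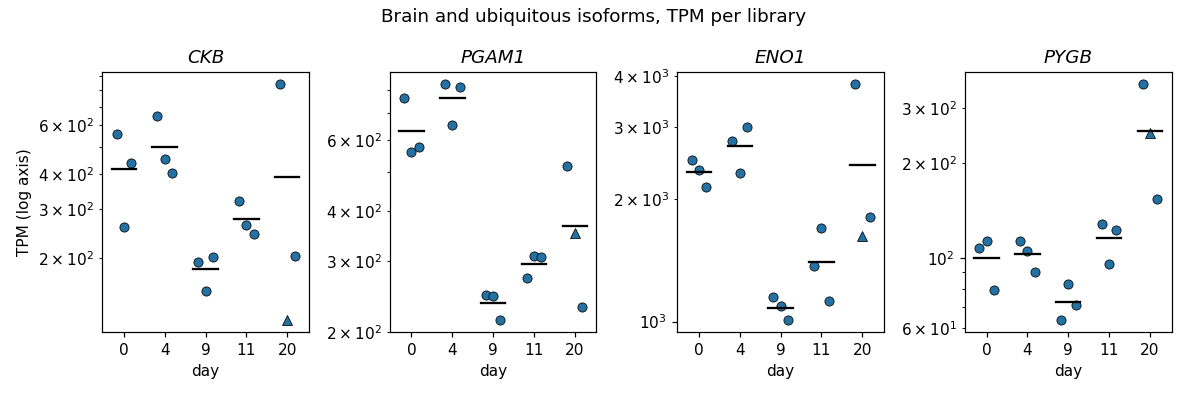
TPM per library (log y axis) against day for CKB, PGAM1, ENO1 and PYGB. Each point is 1 library, the triangle is the 2_3 library of day 20, and bars are means of 3. All 4 genes have their lowest mean on day 9, and CKB on day 20 runs from 119 to 846 TPM.

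The isoform pairs were then compared within each library, which sets aside any gene that takes a large share of the TPM. CKM made 0.0563% to 0.155% of the CKM and CKB TPM on day 0 and 0.102% to 0.222% on day 4. On day 9 the share was 1.98%, 0.650% and 1.60%. On day 11 it was 13.3%, 53.9% and 18.9%, and on day 20 it was 54.5%, 83.3% and 37.4%. CKM thus exceeded CKB in 1 of 3 libraries of day 11 and in 2 of 3 of day 20.

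The log2 ratio of CKM to CKB (0.1 TPM added to each) was 10.10 ± 0.94 (SE, n = 3 and 3) higher on day 20 than on day 0, without overlap. From day 9 to day 11 it was 4.68 ± 1.01 higher, also without overlap. The exact two-sided permutation p was 0.1 for both, the smallest that 3 libraries against 3 can give, so this design cannot reach 0.05.

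ENO3 stayed the minor enolase. Its share of ENO3 and ENO1 TPM was 0.485% to 0.620% on day 0, 0.510% to 0.744% on day 4 and 4.91% to 6.18% on day 9. It was 5.63% to 9.11% on day 11 and 4.49% to 10.5% on day 20. The log2 ratio was 3.88 ± 0.41 higher on day 20 than on day 0 (exact permutation p = 0.1, no overlap), and 0.36 ± 0.24 higher on day 11 than on day 9 (exact permutation p = 0.3), where the days overlapped.

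PYGM was a sizeable minority of its pair from the start. It made 17.4%, 6.42% and 16.7% of PYGM and PYGB TPM on day 0 and 14.3% to 20.0% on day 4. On day 9 the share was 14.1% to 28.4%, on day 11 it was 22.6% to 46.8%, and on day 20 it was 36.5% to 44.7%. The log2 ratio was 2.25 ± 0.54 higher on day 20 than on day 0 (exact permutation p = 0.1, no overlap). From day 9 to day 11 it was 0.64 ± 0.64 higher, within the spread of the libraries (exact permutation p = 0.6). In these 6 tests of 3 pairs no p could pass a threshold of 0.05. PYGM did not exceed PYGB in any of the 15 libraries.

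**Figure D4:**
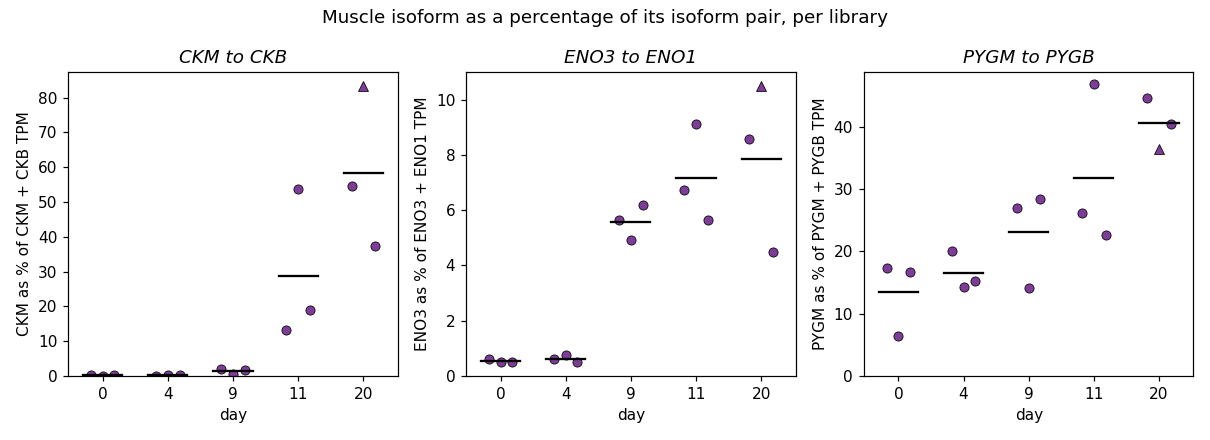
Muscle isoform as a percentage of the TPM of its pair, per library, against day. Each point is 1 library, the triangle is the 2_3 library of day 20, bars are means of 3, and each panel has its own y scale. CKM passes 50% in 1 library of day 11 and 2 of day 20, while ENO3 stays under 11%.

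Promoter sequence was read from RefSeq windows on GRCh38.p14, which run from 250 bases before to 50 after a start site; 11 windows covered 8 of the 9 genes and no window was used for PYGM. Stretches are shown for CKM and CKB, the pair whose ratio moved most, and for PYGB, the counterpart with the highest fold change between days 0 and 20. They are written 5′ to 3′ along the gene. Capitals mark CAGCTG (a core of the sites bound by myogenic factors) in CKM, the MEF2 site with the TATAAA inside it and then GGGCGG (a core of Sp1 sites) in CKB, and GGGCGG on the opposite strand in PYGB. The stretches are chr19:45322876-45322995 (minus), chr14:103522876-103522905 (minus) and chr20:25247965-25248084 (plus).
CKM: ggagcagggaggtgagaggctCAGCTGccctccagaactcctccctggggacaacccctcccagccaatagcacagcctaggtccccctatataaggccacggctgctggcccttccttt
CKB: atgggCTATAAATAGccgccaatGGGCGGc
PYGB: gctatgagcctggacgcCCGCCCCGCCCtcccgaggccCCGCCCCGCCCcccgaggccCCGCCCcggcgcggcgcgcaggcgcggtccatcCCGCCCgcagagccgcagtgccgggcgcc

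Both strands of each whole window were searched for 6 motifs. CAGCTG occurred in windows of CKM, CKMT2, ENO3, MB and PYGB, and in 17.9% of all 35116 windows. GGGCGG occurred in windows of CKM, CKMT2, ENO3, CKB, PGAM1, ENO1 and PYGB, with 5 matches in CKB and 6 in PYGB, and in 45.0% of all windows. TATAAA was found in CKB and CKMT2 and in 11.5% of all windows. The MEF2 site, which is bound by MEF2 factors of muscle and brain, was found among these genes in CKB alone, where it spans the TATAAA, and in 2.99% of all windows. The CArG box and TCAAGGTCA matched no window of these genes and matched 1.29% and 0.353% of all windows. No match says only that these letters are not in these windows, and a match is a description and not a binding site.

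Cell type markers differed among the day 20 libraries too, and their part in the results was not tested. The summed TPM of the 7 cardiomyocyte markers was 22150.2, 21530.5 and 5163 on day 20 and 6063, 20975 and 3890 on day 11. The low library of day 20 is the plate 6 library in which all 5 muscle genes were lowest, and the high one of day 11 is the plate 5 library in which they were highest. The 5 fibroblast and mesenchymal markers summed to 2492, 1109 and 21724 TPM on day 20, and the 6 endoderm and yolk sac markers to 17415, 702 and 20608. The 7 neuronal markers summed to 61.5 to 109.9 TPM on day 0, 87.0 to 129.6 on day 4, 8.45 to 14.0 on day 9, 10.1 to 20.0 on day 11, and 49.5, 68.5 and 319 on day 20. Of the 319 TPM in the plate 6 library, STMN2 made 304, while CKB was highest in the first plate 2 library of that day. Of the cardiomyocyte markers, 5 of 7 were called higher between days 11 and 9, where 1.39% of all genes were. Between days 20 and 11 it was 0 of 7, where only 1.12% of all genes were called higher. TNNT2, MYH6, ACTN2 and TNNI1 were among the genes that the study picked from this time course for being high on day 11, so their rise to that day is not independent evidence.

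The 9 skeletal myogenic markers summed to 22.1 to 140 TPM over all days. In every library but the 2_3 library most of this came from ACTN3, which was present from day 0. In the 2_3 library ACTN3 made 36.8 of 79.4 TPM. Of these, 3 were tested between days 9 and 4. PAX7, a gene of muscle progenitors that is also made in the neural tube, was called higher by 3.48 ± 0.60 (adjusted p = 0.00204), from at most 0.249 TPM on day 4 to at least 0.783 TPM on day 9. MYH2, a myosin heavy chain of adult skeletal fibres, was at 1.32 to 6.72 TPM on day 0 and fell by 4.42 ± 0.56 on the log2 scale between days 4 and 9 (adjusted p = 0.000377). MYOD1, MYOG and MYF5, which define skeletal myoblasts, were at or under 1.57 TPM in every library but the 2_3 library. There they were at 2.98 to 8.35 TPM, and the source of these reads was not tested.

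Genes that feed or share the phosphate shuttle went both ways. Of 8 genes for creatine supply, ubiquitous mitochondrial creatine kinase, adenylate kinase and AMP deaminase, 7 were tested between days 20 and 0, and 3 were higher and 3 lower, where 16.1% of all genes were called higher and 11.3% lower. The AMP deaminase AMPD3 was not called (0.71 ± 0.48, adjusted p = 0.317). GATM, which makes the creatine precursor, rose by 2.52 ± 0.41 (adjusted p = 0.00386), and GAMT, which completes creatine, rose by 1.83 ± 0.43 (adjusted p = 0.0152). AK1, the cytosolic adenylate kinase of muscle, rose by 3.17 ± 0.49 (adjusted p = 0.00318), from 1.85 to 2.22 TPM on day 0 to 33.6, 17.4 and 14.0 on day 20.

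The creatine transporter SLC6A8 fell by 2.26 ± 0.47 on the log2 scale (adjusted p = 0.0101), and most of this came between days 4 and 9, when it fell by 1.93 ± 0.16 (adjusted p = 4.09e-05). CKMT1A and CKMT1B, near-identical genes for the ubiquitous mitochondrial creatine kinase, fell by 3.10 ± 0.57 and 3.22 ± 0.90 (adjusted p = 0.00612 and 0.0304); how reads were split between them is uncertain. On day 20 CKMT1A was at 0.673, 2.79 and 0.650 TPM and CKMT1B at 0.371, 3.23 and 0.129. Both were highest in the 2_3 library, and the source of these reads was not tested. Without that library CKMT1A fell by 3.87 ± 0.40 on the log2 scale and CKMT1B fell by 5.08 ± 0.53 (adjusted p = 0.000747 for both). Between days 9 and 4, 1 of 7 genes of this list rose and 4 fell, where 24.3% of all genes were called higher and 24.7% lower. Of the other globins, CYGB rose by 2.59 ± 0.71 between days 0 and 20 (adjusted p = 0.0287), with its highest level, 32.9 TPM, in the plate 6 library of day 20, while NGB was at or under 1.38 TPM outside the 2_3 library, which held 3.25, and was called lower without that library (-4.28 ± 0.95, adjusted p = 0.0119).

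Of 13 glycogen genes, 12 were tested between days 20 and 0. Of these, 4 were higher and 0 lower, where 16.1% of all genes were called higher and 11.3% lower. The median log2 fold change of the 12 was 0.95 beside 0.11 for all genes. Among the 4 were the branching enzyme GBE1 (2.57 ± 0.49, adjusted p = 0.00662), the phosphorylase kinase subunit PHKB (1.13 ± 0.24, adjusted p = 0.0105) and the glycogen primer GYG1 (1.09 ± 0.34, adjusted p = 0.0446). GBE1 was the one gene of the list called between days 11 and 9 (1.12 ± 0.19, adjusted p = 0.0316), where 1.39% of all genes were called higher and 1.0% lower. PYGL, the liver phosphorylase, was at 36.1 to 53.8 TPM on day 0 and at 142, 76.7 and 90.8 on day 20 (adjusted p = 0.0554), and it was called without the 2_3 library (1.35 ± 0.26, adjusted p = 0.00672). Between days 9 and 4, 3 of 12 rose and 4 fell, beside 24.3% and 24.7% of all genes.

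Of 5 further isoforms enriched in heart or skeletal muscle, 2 were higher on day 20 than on day 0, against 16.1% of all genes. COX6A2, the heart and muscle form of a cytochrome oxidase subunit, rose by 6.29 ± 1.04 (adjusted p = 0.00397) to 219, 71.6 and 24.5 TPM, from at most 1.91 on day 0. SLC25A4, the muscle form of the ADP/ATP carrier, fell by 1.52 ± 0.12 on the log2 scale from day 4 to day 9 (adjusted p = 3.70e-05) and rose by 2.05 ± 0.25 from day 9 to day 11 (adjusted p = 0.0147). PFKM, LDHB and COX7A1 were not called between days 20 and 0 (adjusted p = 0.0643, 0.240 and 0.0977), and PFKM was called without the 2_3 library (1.28 ± 0.32, adjusted p = 0.0192). Of 10 genes listed as their counterparts, 7 fell and 0 rose between days 9 and 4, where 24.7% of all genes were called lower and 24.3% higher. LDHA fell most (-2.40 ± 0.32, adjusted p = 0.000625). LDHA and ALDOA on this list are themselves the skeletal muscle forms of their enzymes, so the list is not a clean contrast to muscle. Between days 20 and 0 only PFKP, the platelet phosphofructokinase, was called, and it rose by 1.79 ± 0.35 (adjusted p = 0.00758). Of all genes 16.1% were called higher there and 11.3% lower. Without the 2_3 library ALDOC, the brain aldolase, was also called (1.49 ± 0.30, adjusted p = 0.00792).

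The genes whose log2(CPM + 1) ran closest to CKM over the 15 libraries were SRL (r = 0.99), KLHL31 (0.99), MYBPC3 (0.99), CRIP2 (0.99) and MYOM1 (0.99), among 13250 protein-coding genes. For MB they were KLHL30 (0.99), HIPK3 (0.98), PPM1K (0.98), PITPNM2 (0.98) and RXRG (0.98). CKM and MB correlated at 0.96 with each other, and MB and PYGM also at 0.96. These coefficients describe 15 libraries that share the course of days, and they are given with no test.

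CKB kept other company. Its closest genes were DEDD2 (r = 0.92), AGAP1 (0.92), TBC1D22B (0.92), ILRUN (0.91) and DENND1C (0.91), and among the 9 genes it ran closest to ENO1 (0.85) and PGAM1 (0.80). With CKM its r was -0.21, and 0.03 without the 2_3 library. For PYGB the closest genes were NDUFS7 (0.94), CYP1A1 (0.94), GYG1 (0.94), MGST3 (0.93) and NDRG3 (0.93). PYGB ran closer to CKMT2 (0.88) than to CKB (0.28), ENO1 (0.42) or PGAM1 (0.10), and without the 2_3 library these were 0.89, 0.55, 0.55 and 0.19.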

How the data were processed

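The bulk libraries of H1 on days 0, 4, 9, 11 and 20, with 3 per day, were used. Per the labels, stranded total RNA was sequenced as paired reads of 150 bp. The authors aligned these to hg38 with STAR 2.5.2b and deposited raw counts for each gene, made with featureCounts 1.5.1. TPM values were deposited beside them, and the gene lengths behind them are not given in the sources used here. A deposited table of samples gives RNA integrity as a score, uniquely mapped reads as a fraction, and the lane. The labels give day 9 where the methods of the study give day 7.

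Ensembl identifiers were matched to GENCODE v44 symbols. Members and lists were chosen with earlier results of these data known. Named were all members, the pathway lists counted whole, and for CKM, MB, CKB and PYGB the 5 protein-coding genes with the highest Pearson r among those that reached a mean of 5 CPM on some day.

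Each pair of days was fitted on its 6 libraries with edgeR 4.0.16 (R 4.3.3) by the robust quasi-likelihood test, two-sided, after TMM and filterByExpr (minimum count 10, minimum total 15). P-values were adjusted by Benjamini-Hochberg over all genes, with a threshold of 0.05. The test of any change used all 15 libraries. Library totals of 11990302 to 33469703 counts and the spread between replicates set the precision. Isoform ratios (0.1 TPM added) were compared by exact permutation tests in scipy 1.17.1 (Python 3.11.15).

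Alternatives were DESeq2 1.42.0, upper-quartile and library-total scaling, no filter, all 15 libraries in one fit, limma 3.58.1 on log2 TPM with 1 or 0.1 added, ratios with 1 or 0.01 TPM or 0.5 counts added, each library left out, and the lane or plate as a block. The plate numbers in the labels were used as a block, although whether a number marks a plate shared between days is not given in the sources used here. A library alone in its block adds nothing to a plate fit. Between days 9 and 11 these were day 9 replicate 3, which has no plate number, and the plate 5 library of day 11. That fit therefore rests on plates 2 and 6. Between days 11 and 20 the plate 5 library of day 11 was alone. Once day means were removed, the plates gave correlations across genes of 0.10 and 0.30 for days 9 and 11, and of -0.14, 0.01 and 0.35 for days 11 and 20. Other comparisons share fewer than 2 plates and had no plate block. Added after the data were seen were values within lanes and plates and list counts without the 2_3 library. The fits were tested on simulated data.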

Additional observations from a re-analysis of the deposited data

How the results depend on the processing

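The number of members called held within 1.5-fold for 3 comparisons under every alternative: 0 between days 4 and 0, 5 to 7 between days 20 and 0, and 7 to 9 over the 5 days. Between days 9 and 4, 7 members were called, 5 to 7 without 1 library, and 3 with all 15 libraries in one fit. Between days 11 and 9, 1 member was called, 4 with DESeq2, 3 with the lane as a block, 4 with the plate as a block and 0 to 2 without 1 library. Between days 20 and 11, 1 member was called, 3 with DESeq2, 4 with all 15 libraries in one fit, 0 with the lane or the plate as a block and 0 to 1 without 1 library. The number of all genes called moved too. Between days 9 and 4 it went from 10406 to 6209 with all 15 libraries in one fit. Between days 11 and 9 it went from 495 to 1671 with DESeq2, 698 with the lane block and 1971 with the plate block. Without 1 library it was 0 to 573. Between days 20 and 11 it went from 332 to 1864 with DESeq2 and 3132 with all 15 libraries in one fit. There it was 137 with the lane block, 3 with the plate block and 0 to 510 without 1 library. The cause was not tested.

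The log2 isoform ratios kept their direction under every alternative. Without 1 library the change in CKM to CKB was 3.80 to 5.26 between days 9 and 11 and 9.25 to 10.77 between days 0 and 20, that in ENO3 to ENO1 0.16 to 0.53 and 3.61 to 4.27, and that in PYGM to PYGB 0.15 to 0.95 and 1.73 to 2.53.

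Of 617 alternative values for 44 single fold changes, 552 kept direction and call, 20 lost and 28 gained a call, and 17 changed sign, none of them for a call of the day 20 and day 0 comparison. Without 1 library the fold change of CKB was -0.093 to 0.36 and that of PYGB -0.11 to 0.081 between days 4 and 0, that of PYGM -0.11 to 0.41 between days 9 and 4, those of CKB, PGAM1 and ENO3 -0.93 to 0.93, -0.29 to 0.37 and -0.0054 to 1.18 between days 20 and 11 (the lowest without the first plate 2 library of day 20), and those of CKB and ENO1 -1.69 to 0.20 and -0.80 to 0.15 between days 20 and 0. PYGB also turned between days 4 and 0 to 0.0065 (upper quartile) and to 0.049 and 0.050 (limma with 1 and 0.1 TPM added), and CKB between days 20 and 11 to -0.14 with the lane as a block.

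After day 9, log2 steps as large as 2.03 (MB, days 9 to 11) and 2.84 (MB, days 11 to 20) missed the threshold, and the smallest step that 3 libraries a day could detect was not tested. PGAM2 was not analysed here, so its ratio to PGAM1 has no value.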
